A study of Mus musculus with 8 samples.

Results

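The genes described here are Trp53, which encodes the transcription factor p53, its regulators Mdm2 and Mdm4, and 7 genes that p53 is known to activate, Cdkn1a, Ccng1, Zmat3, Sesn1, Phlda3, Trp53inp1 and Tigar. These 10 genes were chosen by name and are 10 of the 56748 genes in the deposited table. Their expression was measured by RNA-seq in 8 libraries of 32D cells, a mouse myeloid line that needs interleukin 3 (IL-3) to grow. All cells carried introduced murine Jak2, either unmutated (Jak2WT) or with the V617F exchange that keeps the kinase active (Jak2V617F). In the GLUT1/3 dKO clones Slc2a1 and Slc2a3, the genes of the glucose transporters GLUT1 and GLUT3, had been cut by CRISPR, and the GLUT1/3 WT clones kept both. The 4 groups were thus Jak2WT GLUT1/3 WT, Jak2WT GLUT1/3 dKO, Jak2V617F GLUT1/3 WT and Jak2V617F GLUT1/3 dKO, each with 2 single-cell clones, clone 1 and clone 3. Before RNA isolation every clone spent 24 h in RPMI medium with 5 mM glucose, 1 mM glutamine, 10% serum and 2 ng/ml IL-3. Each clone gave 1 library, so all p-values measure the spread between clones within groups, pooled over the 4 groups and moderated across genes.

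p53 is kept scarce in resting cells because MDM2, itself made from a p53 target gene, marks it for degradation, while MDM4 blocks its activity. DNA damage, nucleolar stress and nutrient stress release p53, which then binds DNA sites made of a pair of half-sites and raises genes for cell cycle arrest, DNA repair, antioxidant defence, metabolism and cell death. Much of this control acts on the protein, so the level of Trp53 mRNA is not a measure of p53 activity, and neither p53 protein nor its binding was measured in these libraries.

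The p53 sites near the start of these genes are shown because they are the sequence feature that links p53 to its targets. The reference genome GRCm39 (mm39, the build of the files) was searched on both strands from 2500 bases before to 2500 bases after the start of each gene's canonical transcript for the p53 response element, a pair of half-sites of 10 bases with a spacer of 0 to 13 bases, allowing 1 mismatch in all and none at the core C and G. Such a site was found at 4 of the 10 genes, against 14.1% of 21757 genes with windows of the same length, and a site without a mismatch at 2 of the 10, against 1.47%. Within 250 bases before and 50 after the start, Ccng1 was the 1 of the 10 genes with a site, against 0.492% of genes. The half-sites are in capitals and the spacer in lower case, and each line reads 5′ to 3′ on the strand of the gene.
Zmat3, intron, chr3:32418480-32418499, minus strand: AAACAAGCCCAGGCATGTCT
Trp53inp1, before the start, chr4:11155112-11155132, plus strand: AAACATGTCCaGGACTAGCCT
Ccng1, before the start, chr11:40646289-40646308, minus strand: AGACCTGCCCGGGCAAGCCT
Ccng1, intron, chr11:40645763-40645782, minus strand: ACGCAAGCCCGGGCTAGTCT
Tigar, before the start, chr6:127088465-127088492, minus strand: TAACTTGTTCtttacttgGAACTTGCTT
The Zmat3 and Trp53inp1 sites had 0 mismatches and the others had 1, and 2 further Zmat3 matches with 1 mismatch, which overlap the one shown, are not printed. With 2 mismatches allowed, 6 of the 10 genes held a match, against 55.0% of all genes. Relative to the start, the centres lay at +1418 for Zmat3, -1290 for Trp53inp1, -160 and +366 for Ccng1 and -1934 for Tigar. A match is a description of letters and not a shown binding site, and a window without one says only that these letters are not in it.

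Across the 8 libraries 16846011 to 48884329 reads were counted in genes, and 11818 genes had at least 1 FPKM (fragments per kilobase of gene, scaled to library size) in at least 2 libraries and were tested. All 10 genes passed that filter, and the read count behind a value ranged from 87 (Phlda3) to 25208 (Ccng1). Slc2a1 lay at 44.7 to 64.0 FPKM in the GLUT1/3 WT clones and at 9.17 to 17.3 FPKM in the dKO clones, and Slc2a3 at 91.9 to 198 and 16.0 to 49.5 FPKM. Both messages were still detected in every dKO clone, limma called both lower in the Jak2V617F dKO but only Slc2a1 in the Jak2WT dKO, and since a cut can disrupt the protein without removing the mRNA, these levels check the labels only in part. Jak2 lay at 218 to 258 FPKM in the Jak2WT and at 139 to 165 FPKM in the Jak2V617F clones, where endogenous and introduced transcripts cannot be told apart. Of 10 myeloblast markers 5 passed the filter, and Kit and Cebpa were listed at 0 in every library, as were the defining T cell and fibroblast genes Cd4, Cd8a and Dcn. The summed level of 8 erythroid markers, of which 6 passed, did not overlap between any groups, at 63.1 to 83.2 FPKM in Jak2WT GLUT1/3 WT, 221 to 262 in the Jak2WT dKO clones, 505 to 852 in Jak2V617F GLUT1/3 WT and 2548 to 4638 in Jak2V617F GLUT1/3 dKO. The summed 10 myeloblast markers ran from 219 to 247 FPKM in the first of these groups down to 89.1 to 92.0 in the last, and the 5 megakaryocyte markers, 4 of which passed and of which Gp1bb was at 0, from 63.2 to 63.7 up to 187 to 240. The 4 macrophage markers, 2 of them passing, summed to 21.9 to 72.9 FPKM, the 4 B cell markers, with Ms4a1 at 0, to 4.82 to 9.32 FPKM, and the T cell and fibroblast markers to at most 0.0986 and 0.0341 FPKM. The part of these marker differences in the results that follow was not tested, and in bulk RNA fewer cells of a type and less RNA per cell cannot be told apart.

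Ccng1 was the most abundant of the 10 genes and Tigar the least, with FPKM adjusting for gene length. Ccng1, Cdkn1a, Trp53, Mdm2 and Mdm4 lay at 16.9 FPKM or more in every library, Sesn1, Trp53inp1, Zmat3 and Phlda3 between 3.22 and 14.1 FPKM, and Tigar between 1.10 and 2.95 FPKM.

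**Figure D1:**
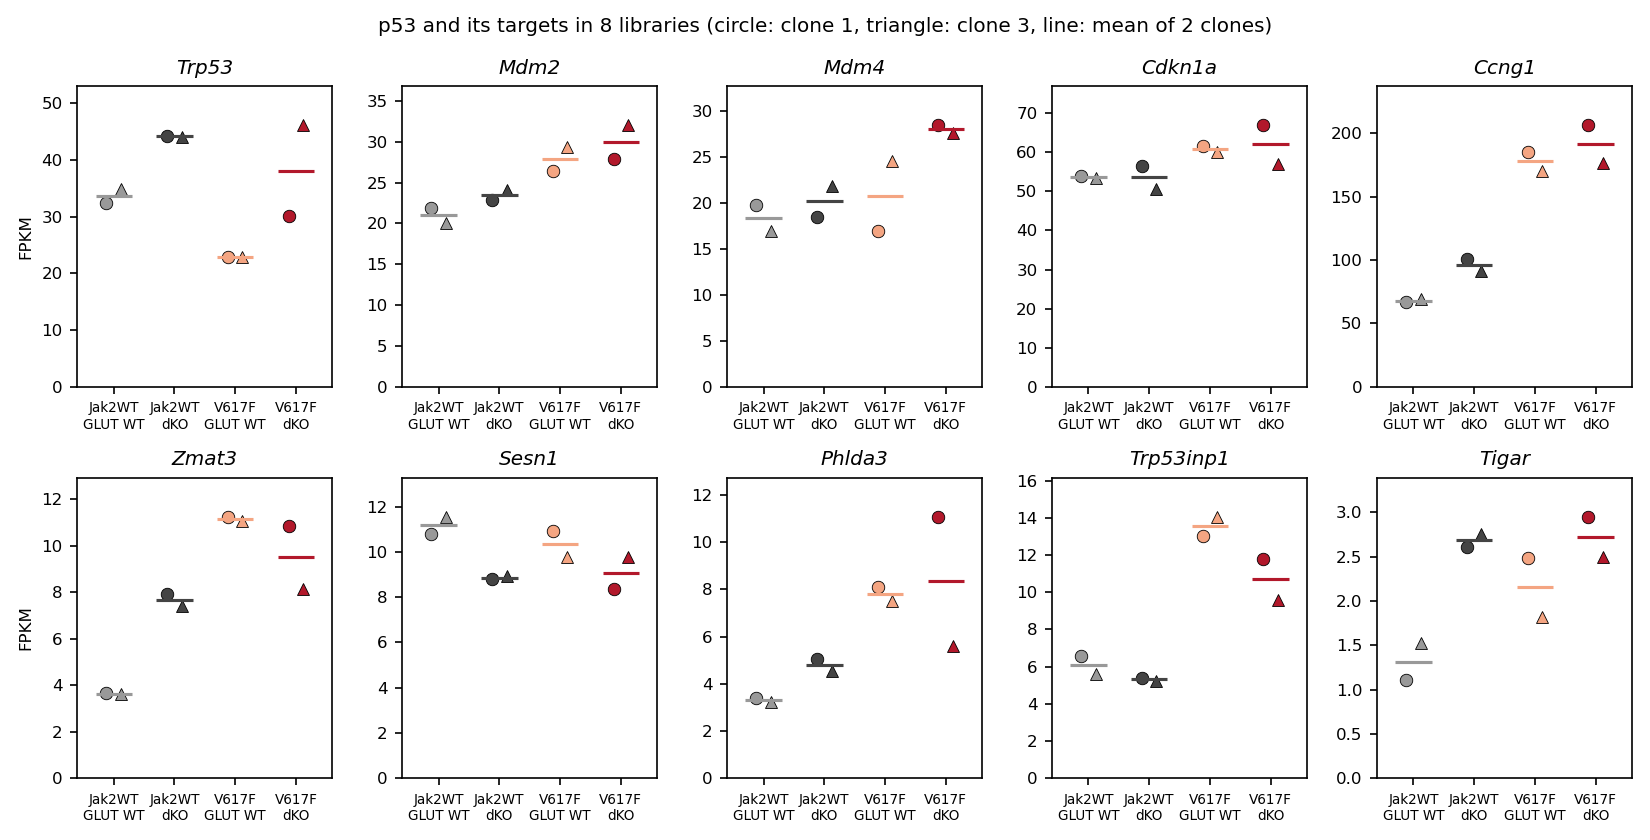
Level in FPKM (y axis, from 0, own scale per gene) of the 10 genes in the 4 groups (x axis); circles are clone 1, triangles clone 3 and lines the mean of 2 clones. Ccng1, Zmat3, Phlda3 and Trp53inp1 sit higher in both Jak2V617F GLUT1/3 WT clones than in both Jak2WT GLUT1/3 WT clones, while Cdkn1a stays between 50.7 and 66.9 FPKM throughout.

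Trp53 (ENSMUSG00000059552, chromosome 11, 69471185 to 69482699, plus strand) was lowest in Jak2V617F GLUT1/3 WT. It measured 32.4 and 34.8 FPKM in clones 1 and 3 of Jak2WT GLUT1/3 WT, 44.3 and 44.1 in the Jak2WT dKO clones, 22.8 and 22.9 in Jak2V617F GLUT1/3 WT and 30.1 and 46.1 in Jak2V617F GLUT1/3 dKO. The dKO clones lay above the GLUT1/3 WT clones of their background in both backgrounds, but the 2 Jak2V617F dKO clones were far apart and spanned the Jak2WT groups. The order of means was therefore clear only at its lower end, where Jak2V617F GLUT1/3 WT (22.9 ± 0.035, SD, n = 2) lay below Jak2WT GLUT1/3 WT (33.6 ± 1.67) with no overlap. In the reference annotation Trp53 shares 263 exonic bases with Wrap53 on the opposite strand, which lay at 4.80 to 8.98 FPKM and whose span in the deposited table ends before Trp53, and whether reads were assigned by strand is not given in the sources used here.

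Mdm2 (ENSMUSG00000020184, chromosome 10, 117524780 to 117546663, minus strand), the ubiquitin ligase that marks p53 for degradation, was higher in Jak2V617F. Its values were 21.9 and 20.0 FPKM in Jak2WT GLUT1/3 WT, 22.9 and 24.1 in the Jak2WT dKO clones, 26.4 and 29.4 in Jak2V617F GLUT1/3 WT and 27.9 and 32.0 in Jak2V617F GLUT1/3 dKO. All 4 Jak2V617F clones lay above all 4 Jak2WT clones, and the 2 Jak2V617F groups overlapped. Mdm4 (ENSMUSG00000054387, chromosome 1, 132887222 to 132958299, minus strand), which binds p53 and blocks its activity, measured 19.8 and 16.9, 18.5 and 21.8, 16.9 and 24.6, and 28.4 and 27.6 FPKM in the same order of groups. The first 3 groups overlapped and only the Jak2V617F dKO clones stood above them.

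Cdkn1a (ENSMUSG00000023067, chromosome 17, 29309950 to 29319701, plus strand) encodes p21, the inhibitor of cyclin-dependent kinases that carries much of the p53-dependent arrest. It measured 53.9 and 53.3 FPKM in Jak2WT GLUT1/3 WT, 56.6 and 50.7 in the Jak2WT dKO clones, 61.7 and 60.1 in Jak2V617F GLUT1/3 WT and 66.9 and 57.1 in Jak2V617F GLUT1/3 dKO. Its highest library was 1.32 times its lowest, and the dKO and GLUT1/3 WT clones of each background overlapped. Every Jak2V617F clone lay above every Jak2WT clone.

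Ccng1 (ENSMUSG00000020326, chromosome 11, 40639379 to 40646138, minus strand) encodes cyclin G1, which recruits a phosphatase to MDM2. It measured 67.0 and 68.9 FPKM in Jak2WT GLUT1/3 WT, 101 and 91.5 in the Jak2WT dKO clones, 186 and 171 in Jak2V617F GLUT1/3 WT and 206 and 176 in Jak2V617F GLUT1/3 dKO. The 2 Jak2V617F groups overlapped and every other pair of groups was apart. In that annotation Ccng1 shares 114 exonic bases with Nudcd2 on the opposite strand, which lay at 43.9 to 59.8 FPKM.

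Zmat3 (ENSMUSG00000027663, chromosome 3, 32388941 to 32420163, minus strand) encodes an RNA-binding zinc finger protein that acts on splicing and mRNA stability downstream of p53. It measured 3.68 and 3.604 FPKM in Jak2WT GLUT1/3 WT, 7.91 and 7.41 in the Jak2WT dKO clones, 11.2 and 11.1 in Jak2V617F GLUT1/3 WT and 10.9 and 8.14 in Jak2V617F GLUT1/3 dKO. No pair of groups overlapped. Trp53inp1 (ENSMUSG00000028211, chromosome 4, 11156431 to 11174379, plus strand), a stress protein that promotes p53 activity and autophagy, measured 6.57 and 5.63, 5.39 and 5.26, 13.01 and 14.1, and 11.8 and 9.60 FPKM in the same order. The 4 Jak2V617F clones all lay above the 4 Jak2WT clones.

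Phlda3 (ENSMUSG00000041801, chromosome 1, 135693857 to 135696874, plus strand) encodes a small membrane-lipid-binding protein that holds back AKT. It measured 3.39 and 3.22 FPKM in Jak2WT GLUT1/3 WT, 5.05 and 4.53 in the Jak2WT dKO clones, 8.09 and 7.51 in Jak2V617F GLUT1/3 WT and 11.1 and 5.62 in Jak2V617F GLUT1/3 dKO, where 1 clone lay above and 1 below the Jak2V617F GLUT1/3 WT clones. Sesn1 (ENSMUSG00000038332, chromosome 10, 41685931 to 41784420, plus strand), which encodes sestrin 1, a restraint on mTORC1 signalling, measured 10.8 and 11.6, 8.78 and 8.94, 10.9 and 9.78, and 8.37 and 9.79 FPKM. In the reference annotation it shares 548 exonic bases with Cep57l1 on the opposite strand, which lay at 2.65 to 4.11 FPKM. Its dKO clones lay below the GLUT1/3 WT clones in Jak2WT and overlapped them in Jak2V617F. Tigar (ENSMUSG00000038028, chromosome 6, 127062079 to 127086520, minus strand), whose product lowers glycolytic flux and favours the pentose phosphate pathway, measured 1.10 and 1.53, 2.61 and 2.75, 2.49 and 1.82, and 2.95 and 2.49 FPKM. Both Jak2WT GLUT1/3 WT clones lay below all other clones.

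The variation of most of these genes followed the Jak2 background, with 3 genes following the GLUT genotype instead. Of the sum of squares of log2(FPKM + 1) over the 8 libraries, the background took 90.6% for Trp53inp1, 90.3% for Ccng1, 78.0% for Mdm2, 70.6% for Phlda3, 65.5% for Cdkn1a and 59.5% for Zmat3, against a median of 20.9% over the genes tested. The GLUT genotype took 70.9% for Sesn1, 58.8% for Tigar and 51.9% for Trp53, against a median of 22.2%. Zmat3 was the gene with the largest interaction share, 27.3% against a median of 10.3%, and Mdm4 had no dominant factor, with 31.7% lying between clones. These shares describe 8 libraries and were not tested.

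**Figure D2:**
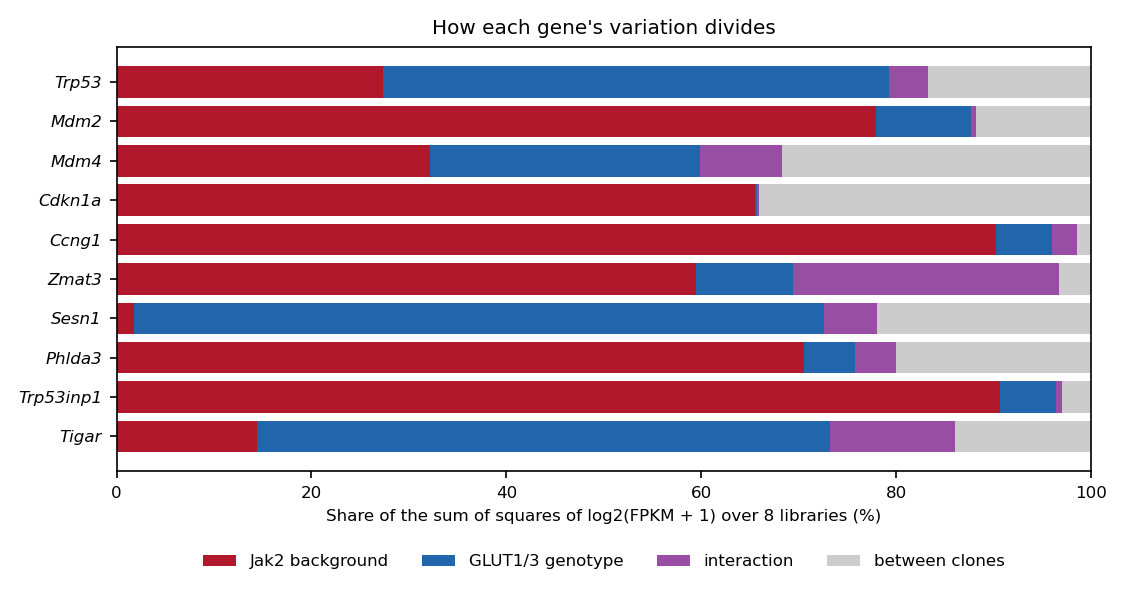
Share of the sum of squares of log2(FPKM + 1) over 8 libraries (x axis, %) that goes with the Jak2 background, the GLUT1/3 genotype, their interaction and the spread between clones, for each of the 10 genes (y axis). The background takes 90.3% for Ccng1 and 1.76% for Sesn1, and the GLUT1/3 genotype takes 70.9% for Sesn1.

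The members also tracked each other unequally. Over the 8 libraries Pearson's r of log2(FPKM + 1) with Ccng1 was 0.93 for Phlda3, 0.91 for Zmat3 and 0.89 for Mdm2, and Trp53 and Trp53inp1 were at -0.75. These are descriptions over 8 libraries in 4 groups that share their clones' history, not independent points. Among the 7315 genes with a mean of at least 5 FPKM, those whose pattern was most like Trp53 were Sgf29 (r = 0.98), Mpdu1 (0.98), Tfap4 (0.97), Fbxw17 (0.97) and Grk6 (0.97). Those most like Cdkn1a were Mef2a (0.97), Mettl6 (0.97), Top2b (0.96), Man1a (0.95) and Med20 (0.95).

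The comparison of Jak2V617F with Jak2WT among GLUT1/3 WT clones asked what the mutant kinase went with, and 4 of the 7 targets and Mdm2 were called higher while Trp53 was not. Jak2 mRNA was itself lower in these Jak2V617F clones (-0.84, limma adjusted p = 0.00120). The summed erythroid markers were higher, as given above. Of the 6 erythroid markers tested 4 were called higher and 0 lower, against 15.3% and 14.9% of all genes. The summed megakaryocyte markers were at 63.2 to 63.7 FPKM in Jak2WT and 177 to 189 in Jak2V617F, with 2 of 4 tested called higher and 0 lower. Of 2 macrophage markers tested 1, Cd68, was called lower and 0 higher. The part of Jak2 and of these markers was not tested. Zmat3 rose 3.06-fold, Ccng1 2.62-fold, Phlda3 2.36-fold, Trp53inp1 2.22-fold and Mdm2 1.33-fold as ratios of mean FPKM. By limma with Benjamini-Hochberg adjustment over all 11818 genes, the log2 change on the log2(FPKM + 1) scale was 1.39 ± 0.12 (SE) for Zmat3 (adjusted p = 0.000575) and 1.38 ± 0.10 for Ccng1 (adjusted p = 0.000379). It was 1.04 ± 0.11 for Trp53inp1 (adjusted p = 0.00133), 1.03 ± 0.24 for Phlda3 (adjusted p = 0.0173) and 0.39 ± 0.10 for Mdm2 (adjusted p = 0.0233). This scale understates the change of low genes. In all 5 both Jak2V617F clones lay above both Jak2WT clones. These genes were picked by their call, so this adds no test, and the share of all genes doing so was not counted. Thus 5 of the 10 genes were called higher, where 15.3% of all genes tested were, and 0 were called lower by limma, where 14.9% of all genes were, with 1 lower at an unadjusted p under 0.05. That gene was Trp53, at 0.68 times its Jak2WT level (log2 change -0.54 ± 0.17, adjusted p = 0.0515), and both Jak2V617F clones lay below both Jak2WT clones. Cdkn1a was 1.14 times its Jak2WT level (log2 change 0.18, 95% interval -0.050 to 0.41, adjusted p = 0.204), Mdm4 had a log2 change of 0.15 (adjusted p = 0.546), Sesn1 -0.10 (adjusted p = 0.456) and Tigar 0.44 (adjusted p = 0.0639). The median log2 change was 0.42 over the 10 genes and 0.0076 over all genes tested.

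When every library was brought to one total FPKM, the median of all genes moved to -0.12 in this comparison. The all-gene calls then went from 1812 higher and 1765 lower to 1223 and 2930, and the calls among the 10 genes from 5 and 0 to 4 and 1, with Mdm2 at 0.25 (adjusted p = 0.156) and Trp53 at -0.69 (adjusted p = 0.0217). With limma voom on the recovered reads, also 4 were called higher and 1, Trp53, lower (-0.66, adjusted p = 0.0148). Without either Jak2WT GLUT1/3 WT clone the higher calls fell to 3, as Phlda3 (adjusted p = 0.0702 and 0.0843) and Mdm2 (adjusted p = 0.0650 and 0.141) missed the threshold. Without either Jak2V617F GLUT1/3 WT clone Phlda3 missed it too (adjusted p = 0.0791 and 0.0575), without clone 3 of that group Mdm2 did (adjusted p = 0.102) and Tigar was called higher (0.60, adjusted p = 0.0492). Without either Jak2V617F dKO clone, which enters only through the shared spread, Trp53 was called lower at the same log2 change of -0.54 (adjusted p = 0.00348 and 0.00347). Without the filter on low FPKM Mdm2 (adjusted p = 0.0544) and Phlda3 (adjusted p = 0.0728) were not called. The calls of Ccng1, Zmat3 and Trp53inp1 held under all 18 alternatives.

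**Figure D3:**
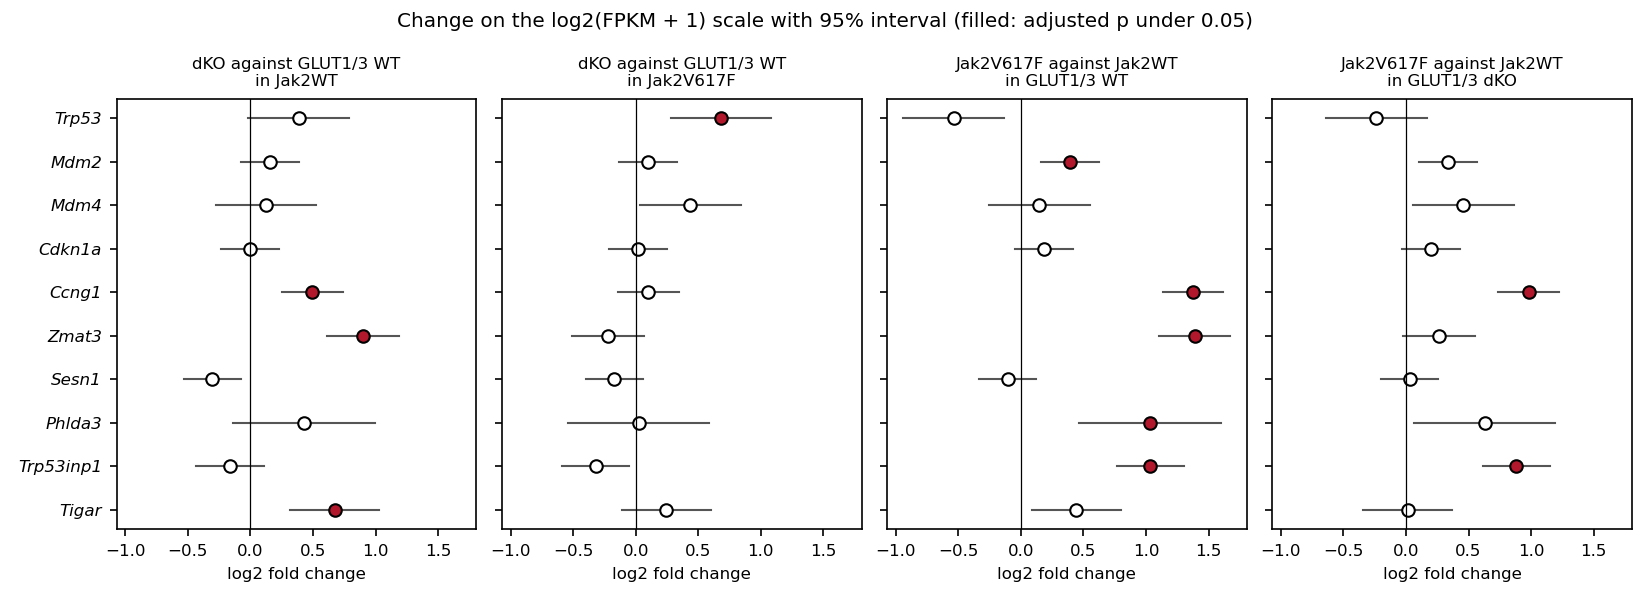
Log2 fold change on the log2(FPKM + 1) scale (x axis) with its 95% interval for the 10 genes (y axis) in 4 comparisons (panels); filled points have an adjusted p under 0.05. Of the 10 genes 5 are filled for Jak2V617F against Jak2WT in GLUT1/3 WT, 2 in GLUT1/3 dKO, 3 for dKO against GLUT1/3 WT in Jak2WT and 1 in Jak2V617F.

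Among GLUT1/3 dKO clones, Ccng1 and Trp53inp1 were again higher in Jak2V617F. Ccng1 was 1.99 times its Jak2WT dKO level (log2 change 0.98 ± 0.10, limma adjusted p = 0.00160) and Trp53inp1 2.01 times (0.88 ± 0.11, adjusted p = 0.00352). These 2 of the 10 genes called higher compare with 7.12% of all genes, and 0 were called lower by limma, against 9.96%, with 0 lower also at an unadjusted p under 0.05 and 0 with limma voom, which called 4 higher by adding Mdm2 (0.39, adjusted p = 0.0321) and Phlda3 (0.85, adjusted p = 0.0468). Zmat3 was 1.24 times its Jak2WT dKO level (log2 change 0.27, adjusted p = 0.183), Phlda3 1.74 times (0.63, adjusted p = 0.123) and Mdm2 1.27 times (0.33, adjusted p = 0.0605). Trp53 had a log2 change of -0.24 (adjusted p = 0.385) and Cdkn1a one of 0.20 (adjusted p = 0.206). The median log2 change of the 10 genes was 0.30, against -0.023 over all genes. The spread between the Jak2V617F dKO clones moved several of these values. Without clone 3 Phlda3 (1.06, adjusted p = 0.00195) and Zmat3 (0.45, adjusted p = 0.0188) were also called higher and Trp53 (-0.54, adjusted p = 0.0108) lower. Without clone 1 the values were 0.19 for Phlda3, 0.079 for Zmat3 and 0.060 for Trp53, none of them called.

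The comparison of dKO with GLUT1/3 WT asked what loss of both transporters went with, and in Jak2WT it went with higher Zmat3, Tigar and Ccng1. Zmat3 was 2.10 times its GLUT1/3 WT level (log2 change 0.90 ± 0.12, limma adjusted p = 0.00764), Tigar 2.04 times (0.67 ± 0.15, adjusted p = 0.0300) and Ccng1 1.42 times (0.50 ± 0.10, adjusted p = 0.0243). For each of these called genes the dKO clones did not overlap the GLUT1/3 WT clones. This adds no test, and the share of all genes doing so was not counted. With 3 of the 10 called higher, against 7.62% of all genes, 0 were called lower by limma, against 6.06%, and 1 was lower at an unadjusted p under 0.05. This was Sesn1, at 0.79 times its GLUT1/3 WT level (log2 change -0.30 ± 0.097, adjusted p = 0.0790), which was called lower with libraries brought to one total (-0.39, adjusted p = 0.0270) and with limma voom (-0.39, adjusted p = 0.0268). Under both settings the 3 higher calls stood beside this 1 lower call. With the same total the median of all genes moved to -0.074 and lower calls over all genes rose, as given below. Trp53 was 1.31 times its GLUT1/3 WT level (0.38, adjusted p = 0.174), Phlda3 1.45 times (0.43, adjusted p = 0.271) and Cdkn1a 1.00 times (-0.00045, 95% interval -0.23 to 0.23, adjusted p = 0.999). The median log2 change of the 10 genes was 0.27, against 0.0082 over all genes.

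The calls in this comparison rest on all 4 of its libraries. Leaving out Jak2WT GLUT1/3 WT clone 1 or 3, or dKO clone 1, left 0 of the 10 genes called higher, and without dKO clone 3 it was 1, Zmat3. Without the filter on low FPKM it was also 1, Zmat3, with Ccng1 (adjusted p = 0.0707) and Tigar (adjusted p = 0.106) not called. Without either Jak2V617F dKO clone, which enters only through the shared spread, Trp53 (adjusted p = 0.0205 and 0.0203) and Phlda3 (adjusted p = 0.0245 and 0.0237) were called higher as well, which made 5. Over all genes the higher calls went from 901 to between 74 and 183 with 1 of these 4 libraries left out. The 3 fold changes themselves moved little, to 0.86 to 0.94 for Zmat3, 0.54 to 0.81 for Tigar and 0.42 to 0.57 for Ccng1.

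In Jak2V617F the dKO went with a higher Trp53 and with none of the 3 target calls seen in Jak2WT. Such a contrast of calls does not test a difference between backgrounds, for which the interaction is given below. Trp53 was 1.67 times its GLUT1/3 WT level (log2 change 0.68 ± 0.17, limma adjusted p = 0.0232) and the clones of these 2 groups did not overlap. That 1 of 10 called higher compares with 13.7% of all genes, and 0 were called lower by limma, against 16.2%, with 1 (Trp53inp1, 0.79 times, log2 change -0.32, adjusted p = 0.0729) at an unadjusted p under 0.05 and 0 with limma voom. Zmat3 was 0.85 times its GLUT1/3 WT level (-0.22, adjusted p = 0.207), Ccng1 1.07 times (0.10, adjusted p = 0.4996), Tigar 1.26 times (0.24, adjusted p = 0.260) and Mdm4 1.35 times (0.44, adjusted p = 0.0934). The median log2 change of the 10 genes was 0.061, against -0.019 over all genes. Without dKO clone 1 the Trp53 change was 0.98 and without clone 3 it was 0.38, both called (adjusted p = 0.00202 and 0.0243). Mdm4 was called with limma voom (0.55, adjusted p = 0.0407), and was 0.69 and called without GLUT1/3 WT clone 3 (adjusted p = 0.0206) and 0.18 without clone 1 (adjusted p = 0.398). The Trp53 call was lost without Jak2V617F GLUT1/3 WT clone 1 (adjusted p = 0.0874) or clone 3 (adjusted p = 0.0779), with only the 2 groups compared (adjusted p = 0.0920) and without the filter on low FPKM (adjusted p = 0.0798). Phlda3 took its direction from a single dKO clone, at -0.41 (adjusted p = 0.0369) without clone 1 and 0.46 (adjusted p = 0.0242) without clone 3. Without dKO clone 1, 3 genes were called lower, Phlda3, Zmat3 (-0.41, adjusted p = 0.0217) and Trp53inp1 (-0.45, adjusted p = 0.0332).

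Whether the dKO effect differed between backgrounds was tested by the interaction, and Zmat3 differed. Its dKO effect was lower in Jak2V617F than in Jak2WT by a log2 of -1.12 ± 0.17 (limma adjusted p = 0.0156), from 0.90 in Jak2WT to -0.22 in Jak2V617F. With 1 of 10 lower, against 5.91% of all genes, 0 were called higher by limma, against 4.72%, with 0 higher at an unadjusted p under 0.05 and 0 with limma voom. For Ccng1 the difference was -0.39 ± 0.15 (adjusted p = 0.123), for Tigar -0.43 ± 0.21 (adjusted p = 0.224) and for Trp53 0.30 ± 0.24 (adjusted p = 0.446), so different dKO effects were not shown for these. The Zmat3 call was lost without either Jak2WT GLUT1/3 WT clone (adjusted p = 0.0629 and 0.0723), Jak2WT dKO clone 1 (0.0685) or Jak2V617F GLUT1/3 WT clone 1 (0.0508), and without the filter on low FPKM (0.0546), with values between -1.31 and -0.93 over all single-library omissions. Without Jak2V617F dKO clone 1, Phlda3 was also lower (-0.84, adjusted p = 0.0264) and Trp53 higher (0.60, adjusted p = 0.0312). The comparisons above share groups, so their values for 1 gene are not independent of each other.

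Other genes of the p53 pathway were read from lists of known regulators and targets, by counts only. Of 16 arrest and stress targets 14 were tested, and in Jak2V617F against Jak2WT among GLUT1/3 WT clones 8 were called higher and 1 lower, against 15.3% and 14.9% of all genes, with a median log2 change of 0.57. Those with the largest changes were Btg2 (1.13), an antiproliferative factor, Gadd45a (1.05), a growth arrest and DNA damage protein, Ddit4 (0.92), an mTORC1 inhibitor, and Ak1 (0.89), an adenylate kinase, all by limma at adjusted p up to 0.0171. Scaled to the same total the split was 6 and 3, without Jak2WT GLUT1/3 WT clone 3 it was 3 and 0, and without Jak2V617F GLUT1/3 WT clone 1 it was 5 and 0. Of the apoptosis and death receptor targets 10 of 15 were tested, and 4 were higher and 3 lower in the same comparison, against the same shares of all genes, with Bbc3 (PUMA, 1.12), Bax (1.01) and Aen (0.74) higher and Pidd1, the PIDDosome scaffold, lower (-0.80). Without either Jak2WT GLUT1/3 WT clone or Jak2V617F GLUT1/3 WT clone 1 this was 3 and 1. Pmaip1, Perp and Trp53i11 of this list were listed at 0 in all 8 libraries.

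In the Jak2V617F dKO these targets went both ways. Of the arrest and stress list 5 were higher and 4 lower (3 and 4 without Jak2V617F GLUT1/3 WT clone 1), against 13.7% and 16.2% of all genes, the lower ones being Ddit4 (-1.60, limma adjusted p = 0.000383), Ndrg1 (-1.18), Gadd45a (-1.03) and Cd82 (-0.92). Gadd45a measured 29.9 and 30.6 FPKM in Jak2V617F GLUT1/3 WT and 14.7 and 13.9 in Jak2V617F dKO, the same range as the 12.9 to 16.0 FPKM of the Jak2WT clones. Ddit4 and Ndrg1, which hypoxia signalling also controls, were lower in the Jak2WT dKO too (-1.16 and -1.72). Of the apoptosis list 3 were higher and 2 lower, with Pidd1 (1.47, adjusted p = 0.000895) and Siva1 (0.63) higher and Fas (-0.64, adjusted p = 0.0197) and Bbc3 (-0.61, adjusted p = 0.0467) lower. The Bbc3 call was lost in 13 of 18 alternatives, with values from -0.87 without Jak2V617F dKO clone 1 to -0.34 without clone 3, and the Fas call in 5, among them each omission of a library of this comparison. Under both other scalings this was 3 and 1, and without any 1 library at most 1 of the list was called lower. Pidd1 rose from 2.13 and 2.70 FPKM to 8.55 and 8.29, and its dKO effect differed between backgrounds (interaction 1.28, limma adjusted p = 0.0176), as did that of Gadd45a (-1.16, adjusted p = 0.00935). The Pidd1 difference was not called without either Jak2WT GLUT1/3 WT clone, Jak2WT dKO clone 1 or Jak2V617F GLUT1/3 WT clone 1, and the Gadd45a difference was not called without Jak2WT GLUT1/3 WT clone 3 or Jak2WT dKO clone 1.

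**Figure D4:**
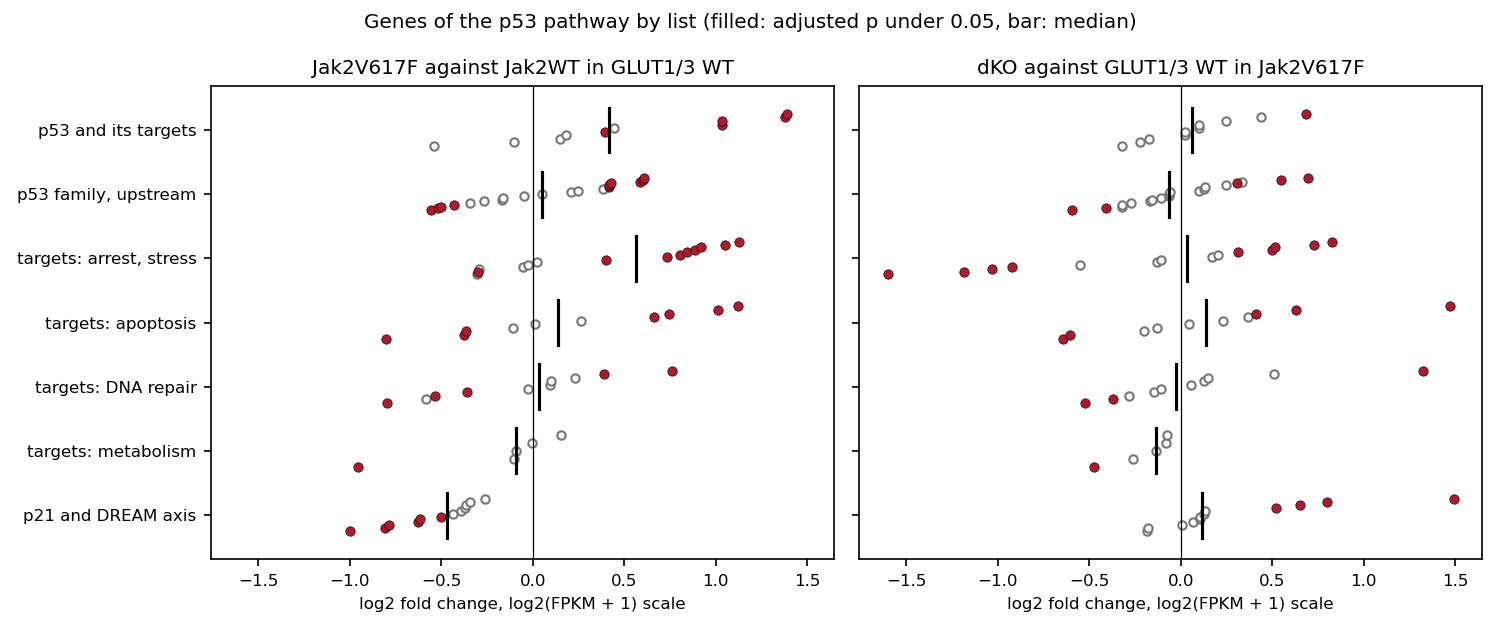
Log2 fold change (x axis, log2(FPKM + 1) scale) of each tested gene in 7 lists of the p53 pathway (y axis), for Jak2V617F against Jak2WT in GLUT1/3 WT (left) and dKO against GLUT1/3 WT in Jak2V617F (right); filled points have an adjusted p under 0.05 and bars are medians. The p21 and DREAM axis list has 6 genes called lower and 0 higher on the left and 4 higher and 0 lower on the right.

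Of 12 genes known to be repressed through p21 and the DREAM complex, most of them mitotic and all tested, 6 were called lower in Jak2V617F among GLUT1/3 WT clones, against 14.9% of all genes, and 0 higher, 0 higher also with limma voom, with all 12 lower and 0 higher at an unadjusted p under 0.05 and a median log2 change of -0.47. Plk1 (-0.997), a mitotic kinase, Mybl2 (-0.81), a late cell cycle transcription factor, Aurkb (-0.78), a kinase of chromosome segregation, and Birc5 (-0.63), survivin, had the largest changes, by limma at adjusted p up to 0.00411. Scaled to the same total, or with limma voom, 12 were called lower, and with median ratio scaling 8. With the same total the lower calls over all genes rose too, as given above. The shares of all genes with limma voom and median ratio scaling are not given here. Without either Jak2V617F dKO clone more of the 12 were called lower, as were more of all genes. In the Jak2V617F dKO 4 were higher, against 13.7% of all genes, and 0 lower, 0 lower also with limma voom and at an unadjusted p under 0.05 but 1 without Jak2V617F dKO clone 3. The higher ones were Mybl2 (1.49), Birc5 (0.80), Aurkb (0.65) and Cdk1 (0.52). Mybl2 moved from 12.0 and 9.40 FPKM to 31.7 and 31.7. Cdkn1a mRNA in this comparison had a log2 change of 0.021 (95% interval -0.21 to 0.25, limma adjusted p = 0.894), and p21 protein was not measured in these libraries. By staining for DNA synthesis, the study reported more cells in early S phase in the dKO of both backgrounds. It also reported more resting Jak2V617F cells in nutrient-poor medium. The part of p21 and of these cell cycle differences was not tested. In the Jak2WT dKO 3 of the 12 were lower, Plk1 (-0.73), Cdc25c (-0.72) and Bub1 (-0.65), against 6.06% of all genes. There 0 were higher, with 1 higher at an unadjusted p under 0.05 and 0 with limma voom. Each of the single omissions of a library of that comparison left 0 or 1 of these called. The dKO effect on 5 of the 12 was higher in Jak2V617F than in Jak2WT by the interaction test, against 4.72% of all genes, and 0 were lower, 0 also with limma voom and at an unadjusted p under 0.05, but the 5 went to 0 without either Jak2WT GLUT1/3 WT clone or Jak2WT dKO clone 1 and to 3 without either Jak2V617F GLUT1/3 WT clone. The higher interaction calls over all genes also fell in each of these omissions. Between the Jak2V617F and Jak2WT dKO clones limma called 0 of the 12, with 3 higher at an unadjusted p under 0.05 and 3 higher with limma voom.

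Of 22 p53 family members and upstream regulators 19 were tested, and Trp63 was listed at 0 in all libraries while Trp73 and Cdkn2a, the gene of ARF, stayed under 0.23 FPKM. In Jak2V617F among GLUT1/3 WT clones 6 of this list were higher (15.3% of all genes), such as Rpl5 (0.58), a ribosomal protein that can bind MDM2, and 4 lower (14.9% of all genes), such as Usp7 (-0.56), which removes ubiquitin from MDM2 and p53, but without either Jak2WT GLUT1/3 WT clone both counts went to 1, and without Jak2V617F GLUT1/3 WT clone 1 they were 2 and 3. In the Jak2V617F dKO 3 were higher, among them Atm (0.55), a DNA damage kinase, and 2 lower, among them Rpl5 (-0.41), against 13.7% and 16.2% of all genes. Without any 1 library of the other 3 groups 1 was higher, and the lower count was 0 without Jak2V617F GLUT1/3 WT clone 1, 1 without clone 3 of that group or either Jak2WT GLUT1/3 WT clone, and 4 without Jak2V617F dKO clone 1. Of 10 DNA repair and nucleotide targets 2 were higher and 3 lower in the first of these comparisons, against 15.3% and 14.9% of all genes (1 and 4 scaled to the same total, 1 and 1 without either Jak2WT GLUT1/3 WT clone, 1 and 2 without Jak2V617F GLUT1/3 WT clone 1) and 1 higher and 2 lower in the second, against 13.7% and 16.2% (1 and 1 scaled to the same total, 1 and 0 without Jak2V617F GLUT1/3 WT clone 1, and 2 and 0 without clone 3 of that group or Jak2V617F dKO clone 1). Pcna, the replication clamp, was lower in the first (-0.53) and higher in the second (1.32, limma adjusted p = 0.000713). Of the 8 metabolic targets 5 were tested, with log2 changes in the dKO from -0.63 to -0.033 in Jak2WT (median -0.31, against 0.0082 over all genes) and from -0.47 to -0.076 in Jak2V617F (median -0.14, against -0.019). In each dKO 1 was called lower, against 6.06% and 16.2% of all genes, and the one in Jak2V617F, Abca1, was not called without Jak2V617F GLUT1/3 WT clone 3, while without Jak2V617F dKO clone 3 there were 2. Gls2, a glutaminase, was lower in Jak2V617F among GLUT1/3 WT (-0.95, adjusted p = 0.00259) and among dKO clones (-0.75, adjusted p = 0.00983), the latter not called without either Jak2WT dKO clone (adjusted p = 0.0626 and 0.0629). In the Jak2WT dKO 3 of the arrest list were called higher, among them Plk3 (0.76) and Ak1 (0.96), and 2 lower, Ddit4 and Ndrg1, against 7.62% and 6.06% of all genes. In the same comparison Aen (0.73) was the 1 gene of the apoptosis list called higher, and the call of the metabolic list was Lpin1 (-0.63), a phosphatidate phosphatase. Leaving out any 1 of the 4 libraries of that comparison left 0 of the arrest list called higher and 2 lower and lost Lpin1, and Aen was lost in each case but that of Jak2WT dKO clone 3. Between the Jak2V617F and Jak2WT dKO clones 5 of the arrest list were higher, with Ndrg1 at 1.38 and Btg2 at 1.08, and 1 was lower, Cd82 at -0.84, against 7.12% and 9.96% of all genes. Without Jak2WT dKO clone 3 this was 3 and 1, and without clone 1 it was 4 and 0.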

How the data were processed

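RNA was measured in 8 libraries of 32D clones, 2 per group. According to the study's methods and processing notes the authors trimmed paired reads with fastp 1.0.1, aligned them to mm39 with HISAT2 2.2.1, counted reads per gene with featureCounts 2.0.6 and deposited FPKM. The annotation release, the strand setting and the total behind FPKM are not given in the sources used here. FPKM times gene length was a whole multiple of 1 step in every library (100% of values within 0.01 of a step), which gave back the read counts.

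Here limma 3.58.1 in R 4.3.3 was fitted to log2(FPKM + 1), pseudocount 1, over 11818 genes with at least 1 FPKM in at least 2 libraries, with 1 mean per group, a mean-variance trend and 4 residual degrees of freedom; adjusted p-values are Benjamini-Hochberg over all genes tested, threshold 0.05. An exact permutation test of 2 against 2 clones cannot go below p = 0.333. A simulation gave every gene the same fixed spread. In it 85.9% of 199 genes changed 2-fold were recovered among 11446 genes for the dKO in Jak2WT. It called 5 unchanged genes, and 1 in a run with no gene changed. The spread of the real genes differed from gene to gene, so this share need not hold for them. Depth bounds the counting error only: the spread between clones exceeded sampling noise (chi-square per gene 7.21 to 30.0 between clones of a group).

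The members and lists were chosen with earlier results of these data known. Named list genes are up to 4 per list and comparison with the largest change among called genes whose clones do not overlap; the printed levels and interactions of Gadd45a, Pidd1 and Mybl2, and the genes listed at 0 or not tested, were picked after their values were seen. Lists are described by counts; no set test was run. Alternatives were another pseudocount, other filters and scalings, limma voom, other variance settings, only the groups compared, a clone block and each library left out. Site search and figures used Python 3.11.15.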

Additional observations from a re-analysis of the deposited data

Results flagged for a closer look

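The dKO effect on Zmat3 differed between backgrounds by a log2 of -1.12 in the interaction test (limma adjusted p = 0.0156). Zmat3 was higher in both Jak2WT dKO clones than in both Jak2WT GLUT1/3 WT clones. It was lower in both Jak2V617F dKO clones than in both Jak2V617F GLUT1/3 WT clones, but that change was not called (-0.22, limma adjusted p = 0.207). The Jak2V617F change was -0.035 without dKO clone 3, and the interaction call was lost under several alternatives, as given above. The summed erythroid markers were higher in the dKO of both backgrounds (63.1 to 83.2 against 221 to 262 FPKM in Jak2WT, 505 to 852 against 2548 to 4638 FPKM in Jak2V617F). Of the 6 tested, 2 were called higher in Jak2WT and 5 in Jak2V617F, against 7.62% and 13.7% of all genes, and 0 lower. In the interaction test 0 of these 6 were called. Called lower there were 2 of 5 myeloblast, 1 of 4 megakaryocyte and 1 of 2 macrophage markers, against 5.91% of all genes, and 0 higher. The part of these markers in the Zmat3 difference was not tested.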

How the results depend on the processing

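Of 890 values of the 10 genes under the alternatives, 802 kept direction and side of the threshold, 33 lost a call, 33 gained one and 22 changed sign. Of 1314 values of the other named genes 1114 were kept, 200 lost the call and 0 changed sign. Without the filter on low FPKM the members called fell to 1 higher for the dKO in Jak2WT, 0 higher for the dKO in Jak2V617F, 3 higher for Jak2V617F among GLUT1/3 WT and 0 lower for the interaction; this alternative tests more genes. With only the groups compared, 5 were higher and 1 lower for the dKO in Jak2WT and 0 higher for the dKO in Jak2V617F. With libraries scaled to the same total, and with limma voom, 1 was lower for the dKO in Jak2WT; limma voom gave 2 higher for the dKO in Jak2V617F and 4 higher for Jak2V617F among dKO. For Jak2V617F among GLUT1/3 WT, 1 (Trp53) was lower with a mean FPKM filter, both scalings, limma voom, robust variances or only the groups compared. The interaction of Mdm2 changed sign to 0.13 with the same total and 0.098 with limma voom, and that of Trp53inp1 to 0.017 and 0.037; the cause was not tested. All-gene calls moved with the same-total scaling from 901 higher and 716 lower to 706 and 1378 for the dKO in Jak2WT, from 1614 and 1919 to 2192 and 1452 for the dKO in Jak2V617F, and from 558 and 698 to 1177 and 393 for the interaction, whose all-gene median moved to 0.12. A site was found in the wide window at 2 of 10 genes with 0 mismatches (1.47% of all genes) and at 6 with 2 (55.0%), and in the near window at 0 with 0 (0.0368%) and at 2 with 2 (3.65%).

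Leaving out each library in turn gave 0 to 5 higher and 0 to 0 lower for the dKO in Jak2WT, 0 to 2 higher and 0 to 3 lower for the dKO in Jak2V617F, 3 to 5 higher and 0 to 1 lower for Jak2V617F among GLUT1/3 WT, 2 to 4 higher and 0 to 1 lower for Jak2V617F among dKO, and 0 to 1 higher and 0 to 2 lower for the interaction. Log2 changes that crossed 0 ranged from -0.078 to 0.077 (Cdkn1a, dKO in Jak2WT). For the dKO in Jak2V617F they ranged from -0.092 to 0.13 (Cdkn1a), -0.012 to 0.21 (Ccng1) and -0.41 to 0.46 (Phlda3). Mdm4 ranged from -0.11 to 0.40 for Jak2V617F among GLUT1/3 WT. Among dKO clones the ranges were -0.076 to 0.10 (Tigar), -0.54 to 0.060 (Trp53) and -0.073 to 0.13 (Sesn1). For the interaction they were -0.15 to 0.038 (Mdm2), -0.092 to 0.13 (Cdkn1a), -0.00064 to 0.60 (Trp53) and -0.84 to 0.029 (Phlda3).

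Clone numbers are shared between groups, but clones with the same number did not deviate together (correlation of clone 1 minus clone 3 between groups -0.25 to 0.15), so they were not treated as pairs. With the clone number as a replicate block, 1 gene (Trp53, -0.54, limma adjusted p = 0.0453) was called lower for Jak2V617F among GLUT1/3 WT, and no other member call changed.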

Other observations

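Mpdu1, the gene with the second most similar pattern to Trp53, lies on the same stretch of chromosome 11 (69547523 to 69553468). It and Wrap53, which is divergent from Trp53 (69452584 to 69471081), were looked at after their values were seen. In the Jak2V617F dKO, Mpdu1 had a log2 change of 0.42 (limma adjusted p = 0.0158) and Wrap53 one of 0.65 (adjusted p = 0.00325), beside 0.68 for Trp53. In Jak2V617F among GLUT1/3 WT clones Wrap53 had -0.35 (adjusted p = 0.0320) and Mpdu1 -0.25 (adjusted p = 0.0852), beside -0.54 for Trp53. In the remaining comparisons Wrap53 and Trp53 had opposite signs, at -0.040 (adjusted p = 0.816) against 0.38 for Trp53 in the Jak2WT dKO and at 0.34 (adjusted p = 0.0486) against -0.24 in Jak2V617F among dKO clones. Mpdu1 had 0.27 (adjusted p = 0.0991) and -0.10 (adjusted p = 0.510) there, neither called. Of the other genes nearby, Fxr2 was called in 1 comparison, at 0.28 (adjusted p = 0.0298) in Jak2V617F among GLUT1/3 WT clones, opposite in sign to Trp53. Cd68, a macrophage marker, was called at 0.82 (adjusted p = 0.0368) in the Jak2WT dKO, at -0.66 (adjusted p = 0.0402) in Jak2V617F among GLUT1/3 WT clones and at -1.20 (adjusted p = 0.00826) among dKO clones. Eif4a1 was called in 0 of the 4 comparisons (limma adjusted p = 0.0800 to 0.944).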
